A study of Mus musculus with 2 samples.

Results

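The genes described here encode spectrins, ankyrin, adducins and the proteins that tie them to the red cell membrane. They were chosen by name as 9 genes, Sptan1, Sptb, Sptbn1, Ank1, Epb41, Epb42, Dmtn, Add1 and Add2, and every probe set that the platform annotation gave to one of them was taken. Of the 9 genes, 8 had a probe set, 27 in all, out of 18193 genes named on the array. Epb41, which encodes protein 4.1 of the red cell, was not analysed here because no probe set carried its name in the annotation used. The samples were 2 sorted cell preparations from the spleens of C57BL/6 mice bearing hepatocellular carcinoma, a liver cancer. The first preparation was Ter119+ and CD45-, where Ter119 marks red cells and their precursors and CD45 marks white cells. The second was CD45+ cells from the same tumour-bearing animals and served as the control. Both preparations came from tumour-bearing mice, and there was no group without a tumour. Age, sex, tumour model and the pooling of animals are not given in the sources used here, nor is whether Ter119 was gated in the CD45+ sort.

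The membrane skeleton is a mesh of spectrin under the plasma membrane, built of alpha and beta chains that pair into long flexible rods. Ankyrin ties beta spectrin to the anion exchanger band 3, protein 4.2 strengthens that link, and protein 4.1, adducin and dematin bind spectrin to short actin filaments. Red cells use their own forms of most of these proteins (Sptb, Ank1 and Add2, among others), while other cells use relatives such as Sptan1, Sptbn1, Ank2, Ank3 and Add3. Inherited defects of the red cell forms cause spherocytosis and elliptocytosis, in which red cells lose their shape and are destroyed in the spleen.

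The start sites of 4 members are shown because 3 of these genes (Sptb, Epb42 and Add2) were higher together in the CD45- array and Sptan1 was lower. Add1, also higher, and Sptbn1, also lower, had windows that are not printed but are described below. The 4 printed windows therefore do not stand for all members. The sequences are from RefSeq, build GRCm38.p6, and each runs from 250 bases before the annotated start to 50 bases after it, on the gene's strand. Capitals mark the GATA words AGATAA or AGATAG or TGATAA or TGATAG, and the word CACCC, each sought on both strands. GATA words are of the kind bound by the erythroid factor GATA1, and CACCC is of the kind bound by Krüppel-like factors such as KLF1. The windows are chr12:76710498-76710797 on the minus strand for Sptb, chr2:121036828-121037127 on the minus strand for Epb42, chr6:86028431-86028730 on the plus strand for Add2 and chr2:29965310-29965609 on the plus strand for Sptan1.
Sptb: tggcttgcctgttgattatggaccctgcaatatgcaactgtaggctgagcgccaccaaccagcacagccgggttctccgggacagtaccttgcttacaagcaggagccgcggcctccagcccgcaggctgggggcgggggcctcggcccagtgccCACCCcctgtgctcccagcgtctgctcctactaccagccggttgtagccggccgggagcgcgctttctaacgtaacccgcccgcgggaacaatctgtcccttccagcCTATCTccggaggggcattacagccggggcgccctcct
Epb42: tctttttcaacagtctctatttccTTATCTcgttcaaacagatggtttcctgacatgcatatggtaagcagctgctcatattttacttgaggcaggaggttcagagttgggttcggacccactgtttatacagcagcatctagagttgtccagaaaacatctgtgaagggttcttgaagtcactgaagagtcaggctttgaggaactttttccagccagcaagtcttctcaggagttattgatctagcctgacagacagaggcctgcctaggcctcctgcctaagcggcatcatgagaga
Add2: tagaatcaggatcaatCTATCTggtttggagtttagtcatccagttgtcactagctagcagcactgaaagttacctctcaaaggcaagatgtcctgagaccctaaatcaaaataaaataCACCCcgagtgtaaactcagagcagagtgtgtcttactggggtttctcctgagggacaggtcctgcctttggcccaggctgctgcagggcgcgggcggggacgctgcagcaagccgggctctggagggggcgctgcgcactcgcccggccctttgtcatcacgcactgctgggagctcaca
Sptan1: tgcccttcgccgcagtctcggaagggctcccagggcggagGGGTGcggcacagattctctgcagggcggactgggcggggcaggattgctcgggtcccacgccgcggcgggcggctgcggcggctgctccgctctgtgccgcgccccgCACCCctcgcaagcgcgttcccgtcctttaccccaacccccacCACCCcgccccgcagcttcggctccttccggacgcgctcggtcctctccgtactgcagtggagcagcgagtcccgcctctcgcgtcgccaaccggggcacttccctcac

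The promoter table had 10 start sites for 7 of the 9 members, Epb41 included, and Ank1 and Dmtn had no entry. Epb41 and Sptbn1 had several start sites each, so the windows are not separate genes. A GATA word lay in 7 of these 10 windows, against 29.8% of all 32851 windows of the same length. CACCC lay in 5 of the 10, against 57.5% of all windows. Both Sptbn1 windows held a GATA word although that gene was lower in the CD45- array. The Add1 and Sptan1 windows held none, nor did the Epb41 window at chr4:132049029-132049328. The Epb42 window had 3 CpG pairs and a GC content of 46.0%, and the Sptan1 window had 37 CpG pairs and 73.3%, while the median window had 7 and 52.7%. These are matches of letters and do not show that a factor was bound.

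Each group had 1 array. The spread between replicates is therefore unknown, no test was made and no p-value is given. Values are deposited intensities on a linear scale, where a higher number means more labelled RNA bound to that probe set. Levels of different probe sets are not comparable, so each fold or difference below is that of a probe set with itself between the arrays. Summed intensities of marker lists and the distances between genes do mix levels of different probe sets, and are descriptive only. A probe set counted as measured above an intensity of 101.1, the 95th percentile of 80 probe sets for odorant and pheromone receptors, which were taken as silent in spleen. That percentile was 127.2 in the CD45- array alone and 73.5 in the CD45+ array alone. Where 1 of the 2 values lay under the level, the level took its place and the fold is written as "at least". A difference is log2 intensity in the CD45- array minus that in the CD45+ array, and 4-fold, 2 on this scale, was the threshold for counting. Where a gene had several probe sets, the brightest over both arrays stood for it. Median intensity was 85.1 in the CD45- array and 87.8 in the CD45+ array, and all measured genes had a median difference of -0.26.

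The white cell and red cell markers went with the sort. All 31 markers of white cells at large, B cells, T cells, natural killer cells, neutrophils and macrophages on the array were at least 4-fold lower in the CD45- array, where their summed intensity was 10575 against 446033. None of these markers was at 0. Of the red cell markers, Alas2, Tfrc and Klf1 were measured, and their CD45+ intensities were 1.44% to 6.83% of the CD45- ones. All 6 platelet markers were also at least 4-fold higher in the CD45- array, with a summed intensity of 34822 against 1642, none of them at 0, and their part in the values below was not tested. Because the samples are bulk RNA, fewer cells of a type and less RNA per cell cannot be told apart.

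The red cell forms of the skeleton were far brighter in the CD45- array, and the common spectrins were far brighter in the CD45+ array. By the brightest probe set, 6 of the 8 members were at least 4-fold higher in the CD45- array, where 8.31% of 11793 measured genes were. The other 2, Sptan1 and Sptbn1, were at least 4-fold lower, where 16.8% of all genes were. All 8 were measured in both arrays. Over the 27 probe sets, 16 passed 4-fold upwards and 3 downwards, 6 were in neither class, and 2 of Sptbn1 were under the level in both arrays. Among all 21447 measured probe sets with 1 gene name, 7.71% passed 4-fold upwards and 14.5% downwards. The members' median difference was 5.88 and hides their split into 2 directions.

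**Figure D1:**
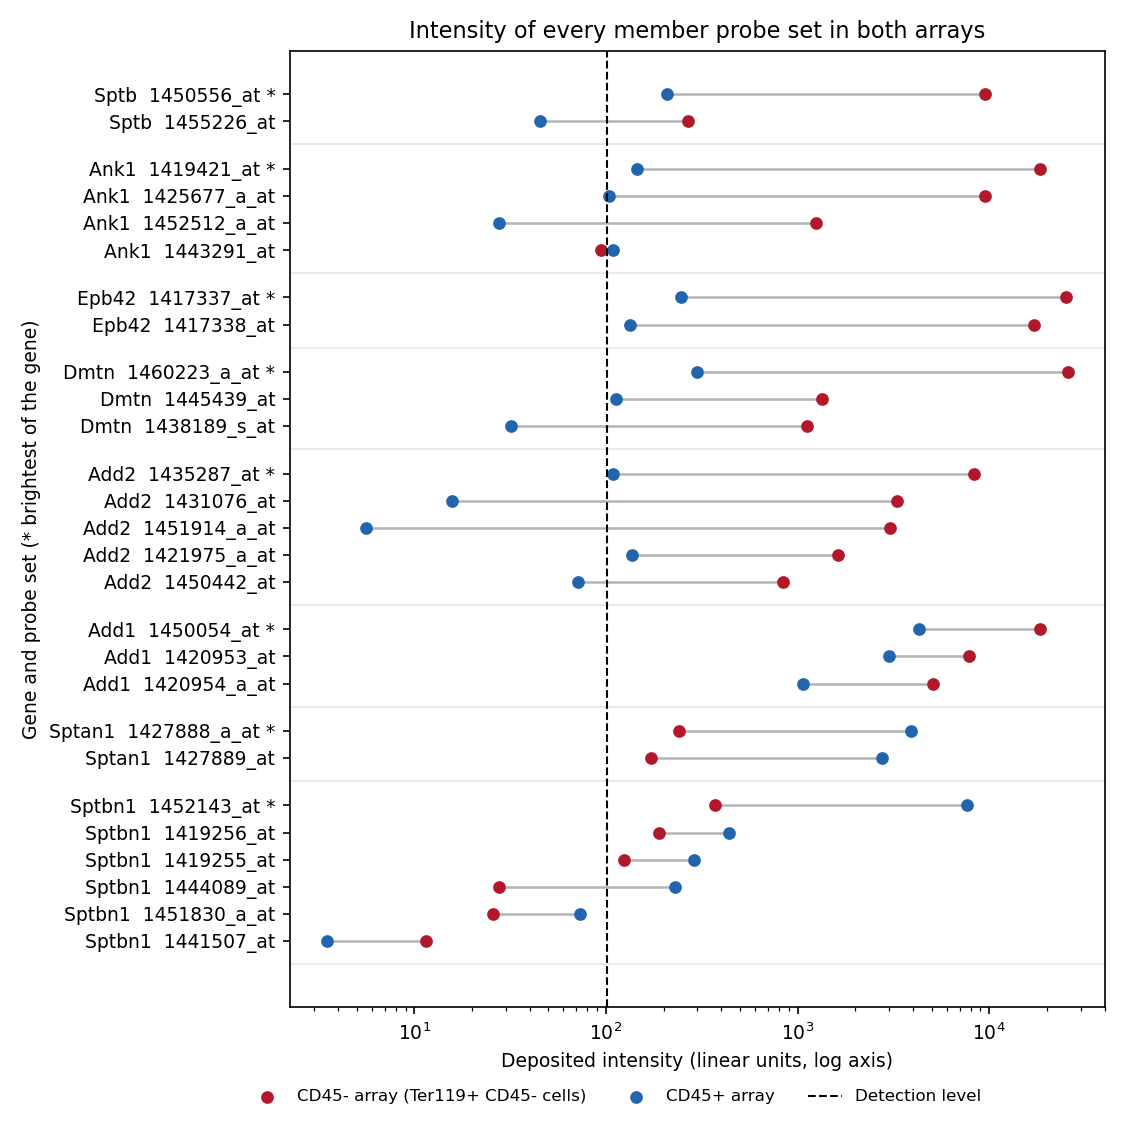
Intensity (linear units on a log axis) of every probe set of the 8 members in the CD45- array (red) and the CD45+ array (blue), with the detection level of 101.1 as a dashed line and 1 array per group. Epb42, Dmtn and Add2 have all their red points to the right of the blue ones, and both Sptan1 probe sets lie the other way round.

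Among the spectrins, Sptb was higher in the CD45- array, whereas Sptbn1 and Sptan1 were lower. Sptb, the beta chain of red cell spectrin, had an intensity of 9450 in the CD45- array and 207.8 in the CD45+ array by probe set 1450556_at. That is a difference of 5.51, or 45.5-fold, and rank 54 from the top of 11793 genes. Its other probe set, 1455226_at, was dim, at 268.5 against 45.5, and was at least 2.66-fold higher, which does not reach 4-fold as a bound.

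Sptbn1, the beta chain that most other cells use, went the opposite way. Its brightest probe set, 1452143_at, stood at 370.3 in the CD45- array and 7660 in the CD45+ array, 20.7-fold lower, with a difference of -4.37. Probe sets 1419256_at (188.9 against 436.9) and 1419255_at (124.9 against 289.3) both had a difference of -1.21, under 4-fold. The value of 124.9 lies under the CD45- array's own level, against which that probe set was at least 2.27-fold lower. Another, 1444089_at, read 27.8 against 227.9, and was at least 1.79-fold lower. The 2 others were under the level in both arrays, at 25.7 against 72.9 and at 11.5 against 3.5. All 4 measured probe sets of Sptbn1 were therefore dimmer in the CD45- array, but only the brightest passed 4-fold, and the plain mean of all 6 differences, values under the level included, was -1.60, which ends the 4-fold call.

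Sptan1, the alpha chain of the common spectrin, had the closest agreement between its probe sets. Probe set 1427888_a_at stood at 239.8 against 3902, a difference of -4.02 (16.3-fold lower). Probe set 1427889_at stood at 172.6 against 2750, a difference of -3.99. The CD45- value was 6.15% of the CD45+ value for Sptan1 and 4.83% for Sptbn1. The 5 markers of white cells at large, among them Ptprc, which encodes CD45, had a summed intensity of 2185 against 114781. In the 4 of them measured in both arrays, the corresponding shares were 1.31% to 2.60%, and Cd48 was under the level in the CD45- array. The 6 macrophage markers had a summed intensity of 1842 against 40521, and in the 5 measured in both arrays the shares were 2.13% to 19.5%. The part of white cell RNA in the CD45- values of the 2 spectrins was not tested. Sptbn5, another beta chain, carried no probe set by name and was not analysed here. Sptbn4, at 26.2 against 87.4, did not reach the level in either array.

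Ank1 encodes the red cell ankyrin and had the largest difference of the members by the brightest probe set. Its brightest probe set, 1419421_at, stood at 18418 in the CD45- array and 145.6 in the CD45+ array, a difference of 6.98 (126-fold) and rank 3 from the top. Probe set 1425677_a_at read 9510 against 103.1, a difference of 6.53, and 1452512_a_at read 1247 against 27.6, at least 12.3-fold higher. The last, 1443291_at, showed no such signal, with 94.3 against 109.0, both close to the detection level. The plain mean of all 4 differences was 4.70, less than the 6.84 of Epb42. The CD45+ value of 145.6 lies under 160.0, the level that the 99th percentile of those receptors would set, and against that level Ank1 was at least 115-fold higher.

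The other ankyrins gave little signal. Ank2, the ankyrin best known from heart and brain, was under the level in both arrays by all 6 of its probe sets. Ank3, the ankyrin of epithelia and nerve axons, had 1 probe set above the CD45- array's own level, 1452124_at, with 142.2 against 3.4, at least 1.41-fold higher. The probe set that stood for Ank3 by brightness read 117.5 against 20.4 and gave no secure fold. No probe set of Ank2 or Ank3 was therefore measured in the CD45+ array, and neither could be set against Ank1 as its counterpart in white cells.

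Epb42, which encodes protein 4.2, was the member whose probe sets gave the largest agreed difference. Probe set 1417337_at stood at 25035 in the CD45- array and 245.2 in the CD45+ array, a difference of 6.67 (102-fold), and 1417338_at at 17137 against 134.0, a difference of 7.00. Protein 4.2 belongs to the transglutaminase family but has lost the enzyme activity. Of its relatives, the tissue transglutaminase gene Tgm2 stood at 2292 against 1386 by the probe set that was brightest over both arrays, 1433428_x_at, a difference of 0.72. The 5 measured probe sets of Tgm2 ran from 0.72 to 2.07, so only 1 of them, 1417500_a_at (2568 against 612.8), passed 4-fold. F13a1, the A chain of coagulation factor XIII, stood at 656.6 against 2328, a difference of -1.83. Tgm4, Tgm5 and Tgm6 were under the level in both arrays, and Tgm1 (6.8 against 125.2) and Tgm3 (14.7 against 138.9) were just above it in the CD45+ array alone.

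Dmtn encodes dematin, an actin-bundling protein of the spectrin junctions. Its brightest probe set, 1460223_a_at, stood at 25672 against 297.2, a difference of 6.43 (86.4-fold). Probe set 1445439_at read 1344 against 113.2, a difference of 3.57, and 1438189_s_at read 1119 against 31.8, at least 11.1-fold higher. All 3 passed 4-fold in the same direction, and their mean gave 5.05. Svil, which encodes supervillin and shares the headpiece domain of dematin, stood at 1036 against 1428, a difference of -0.46, and at 712.4 against 1374 by its other probe set. Of the other headpiece proteins, Vil1 and Avil were under the level in both arrays, and Vill, at 80.7 against 243.5, was at least 1.91-fold lower.

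The 3 adducins, which cap actin filaments and recruit spectrin to them, fell into 3 different positions. Add2, the beta chain of red cell adducin, stood at 8286 in the CD45- array and 109.1 in the CD45+ array by probe set 1435287_at, a difference of 6.25 (76.0-fold). The other 4 Add2 probe sets also passed 4-fold. Of these, 1431076_at (3296 against 15.8) was at least 32.6-fold higher, 1451914_a_at (3049 against 5.6) at least 30.2-fold and 1450442_at (842.6 against 71.4) at least 8.33-fold, while 1421975_a_at (1631 against 136.6) was 11.9-fold higher. The plain mean of the 5 differences, 3 of them with a CD45+ value under the level, was 6.04.

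Add1, the widely used alpha chain that pairs with either partner, was bright in both arrays. It stood at 18453 against 4298 by 1450054_at, a difference of 2.10 (4.29-fold), at 5090 against 1064 by 1420954_a_at, a difference of 2.26, and at 7830 against 2996 by 1420953_at, a difference of 1.39. All 3 probe sets were brighter in the CD45- array. Its place past 4-fold rested on the choice of values, since the mean of the probe sets gave 1.92 and quantile normalization 1.60. The CD45+ value of Add1 was 23.3% of the CD45- value, whereas it was 0.791% to 2.20% for Ank1, Epb42, Dmtn, Add2 and Sptb.

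Add3, the gamma chain that replaces beta adducin in many tissues, was dimmer in the CD45- array by all 4 probe sets. Its brightest, 1423298_at, stood at 924.7 against 4903, a difference of -2.41 (5.30-fold lower). The next, 1426574_a_at (726.1 against 2606) and 1423297_at (580.4 against 2433), had differences of -1.84 and -2.07, and 1456162_x_at (166.3 against 264.4) had -0.67. With the mean of the probe sets the difference was -1.75, under 4-fold.

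The gap between the differences of an erythroid form and its relative describes how far apart these differences lay. A gap does not need opposite directions. Tgm2 and Add1 were themselves brighter in the CD45- array, with differences of 0.72 and 2.10, and Svil had -0.46. It was 9.88 for Sptb over Sptbn1, 8.65 for Add2 over Add3, 6.90 for Dmtn over Svil, 5.95 for Epb42 over Tgm2 and 4.14 for Add2 over Add1. In each of these 5 pairs, the lowest measured probe set of the erythroid gene lay above the highest of its relative. The narrowest separation was that of Add2 and Add1, 3.06 as a bound against 2.26. With the mean log2 value of all probe sets of a gene, and 101.1 in place of a mean under it, the gap of Sptb over Sptbn1 was at least 4.93, that of Add2 over Add3 at least 6.42 and that of Add2 over Add1 at least 2.76.

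**Figure D2:**
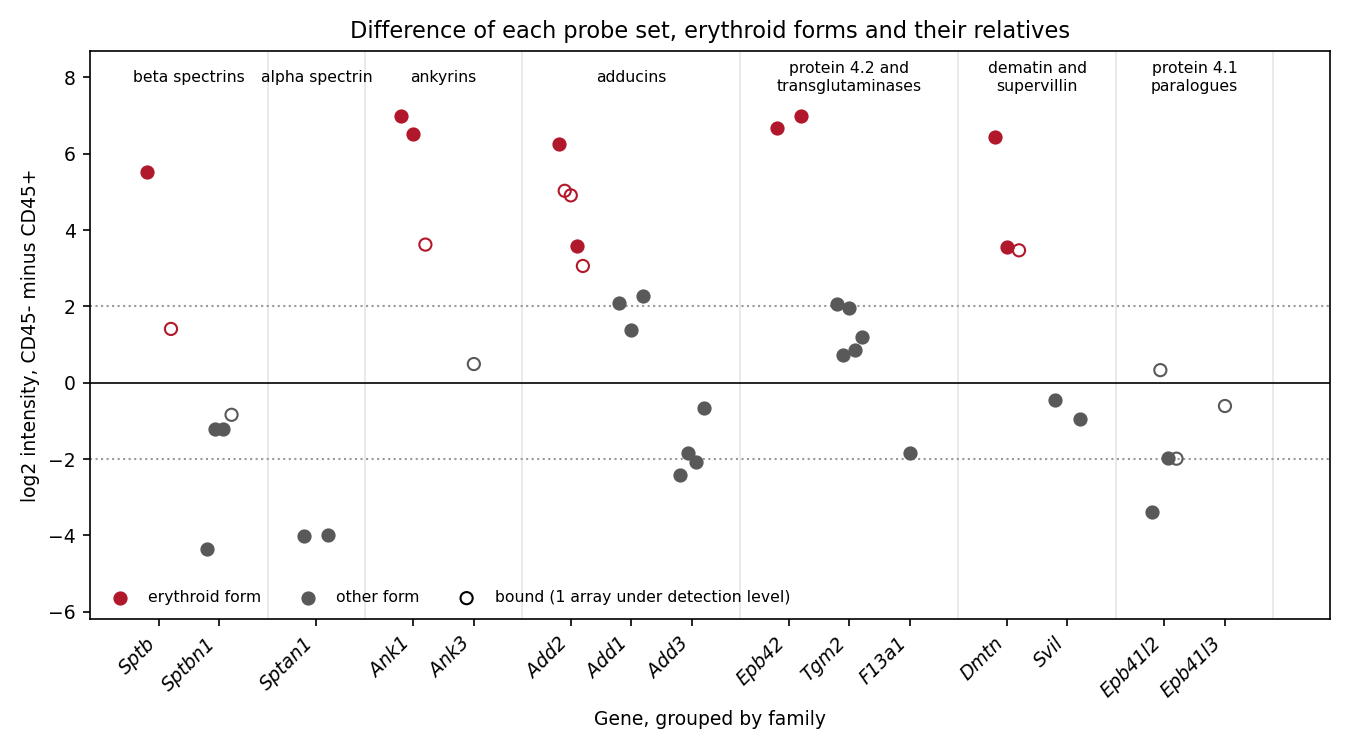
Difference in log2 intensity (CD45- minus CD45+) of each probe set, grouped by family, with erythroid forms in red, other forms in grey, open circles for bounds, dotted lines at 4-fold and 1 array per group. Probe sets under the level in both arrays, or with no secure fold, are not drawn; Add2, Add1 and Add3 form 3 separate steps, and Sptb and Sptbn1 lie on opposite sides of 0.

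Relatives of the missing Epb41 were dim in the CD45- array. Epb41l2, a protein 4.1 of many tissues, stood at 182.6 against 1902 by probe set 1433490_s_at, a difference of -3.38 (10.4-fold lower), at 125.6 against 495.8 by 1433492_at and at 61.5 against 504.6 by 1433491_at. Another, 1452541_at, went the other way, at 127.4 against 11.8, barely above the level. Without the first of these, whose suffix marks a probe set that matches several transcripts, its difference was -1.98, and the plain mean of all 5 differences was -1.26, so the 4-fold call rests on that probe set. Epb41l1 (128.0 against 112.8) and Epb41l3 (89.2 against 194.2) were near the level in 1 array or both, and Epb41l4a, Epb41l4b and Epb41l5 were under it. Of 23 relatives listed for the families, 21 had a probe set and 11 were measured. Of these, 0 passed 4-fold towards the CD45- array and 2, Epb41l2 and Add3, towards the CD45+ array, near the shares of 8.31% and 16.8% over all measured genes. Their median difference was -0.46, beside -0.26 for all genes. These counts rest on the choice of probe set. Without probe sets ending in _x_at or _s_at, Tgm2 had a difference of 2.07 and passed 4-fold towards the CD45- array, while Epb41l2 did not pass 4-fold.

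**Figure D3:**
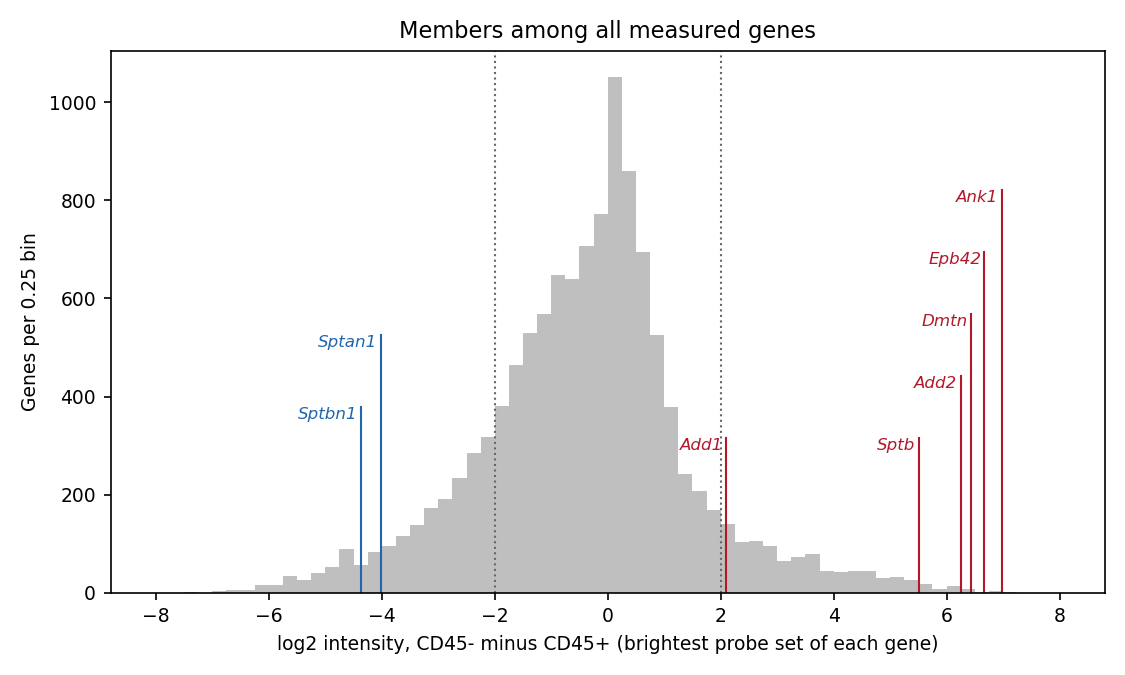
Number of measured genes (y axis) in bins of the difference in log2 intensity, CD45- minus CD45+ (x axis), with the 8 members marked by lines whose heights carry no value and dotted lines at 4-fold. Ank1, Epb42, Dmtn and Add2 lie in the far right tail, Sptan1 and Sptbn1 in the left flank, and Add1 just past 4-fold.

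The proteins that hold the skeleton to the membrane mostly went with the erythroid forms, and the actin parts of the junctions mostly did not. Of 10 measured membrane anchors, 8 passed 4-fold towards the CD45- array, where 8.31% of all genes did, and 1 towards the CD45+ array, where 16.8% did. Their median difference was 4.80. Rhd, an Rh blood group protein, stood at 43882 against 401.7 (109-fold), Kel, the Kell blood group protein, at 19772 against 240.7 (82.1-fold), and Rhag, the Rh-associated glycoprotein, at 43230.3 against 943.0 (45.8-fold). Slc4a1 encodes band 3, the ankyrin-bound anion exchanger, and stood at 99589 against 3562, a difference of 4.81. Slc2a1, a glucose transporter, was the exception, at 114.3 against 2314, at least 18.2-fold lower against the CD45- array's own level. The adhesion receptor Cd44 stood at 1829 against 5844, a difference of -1.68, but its 4 probe sets ran from -2.03 to 0.59.

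Of 10 measured genes of the junctional complex, 2 passed 4-fold towards the CD45- array, 1 towards the CD45+ array and 7 did neither, beside the same 8.31% and 16.8% of all genes, and numbers this small do not set the junction genes apart from those shares. Their median difference was -1.35. Tmod1, the tropomodulin that caps actin in red cells, stood at 9596 against 193.5 (49.6-fold higher), while its relative Tmod3 stood at 1459 against 3700, a difference of -1.34. The 5 probe sets of Tmod3 ran from -1.48 to 0.72, so its direction rests on the choice of probe set. Tpm1, a tropomyosin, stood at 4550 against 599.1 (7.59-fold higher), while Tpm3 and Tpm4 had differences of -1.36 and -1.44. Capzb, a subunit of the actin capping protein, stood at 1727 against 7610, a difference of -2.14, but its 4 probe sets ran from -2.95 to 4.01 and give it no direction. Capza2, another capping subunit, had a difference of -1.59. Actb, the main cellular actin, was almost equal by its brightest probe set, at 45784 against 44769. Its 2 probe sets had differences of 0.03 and 1.75, so near equality rests on that probe set.

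**Figure D4:**
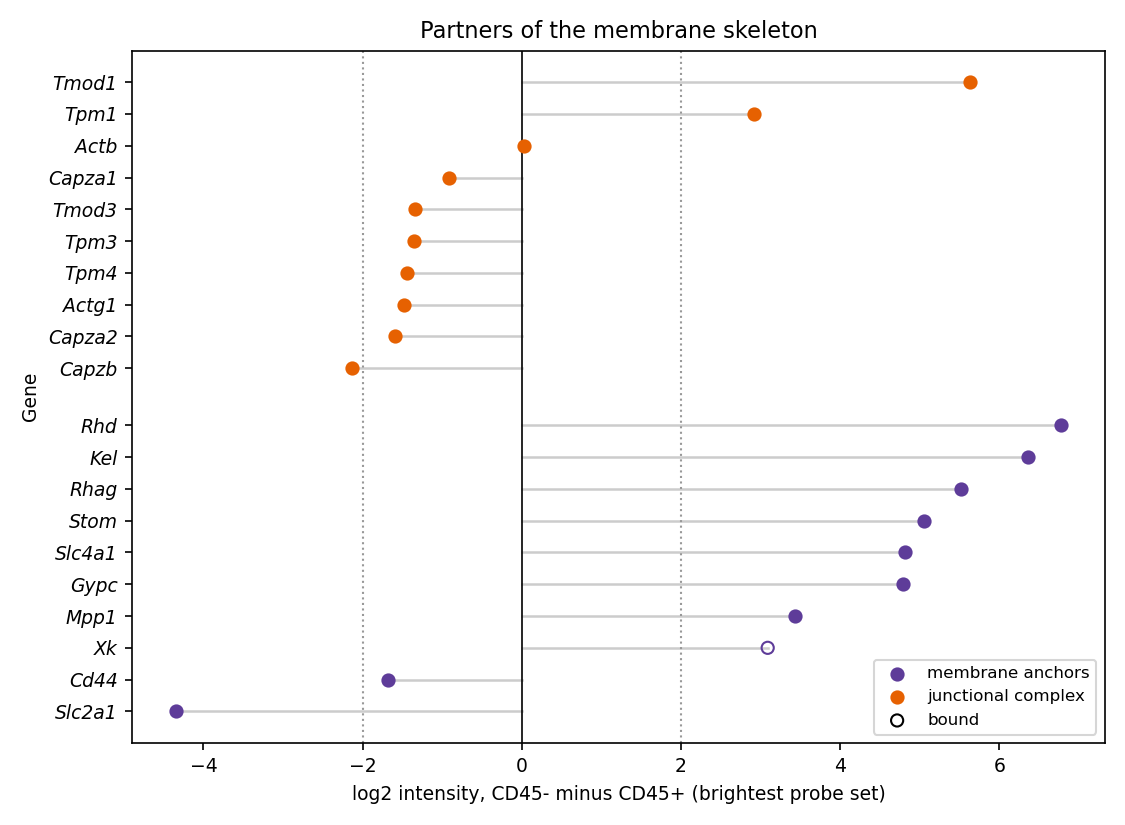
Difference in log2 intensity (CD45- minus CD45+) of 10 junctional complex genes (orange) and 10 membrane anchors (purple), by the brightest probe set of each gene, with dotted lines at 4-fold and an open circle for a bound. Of the orange points, Tmod1 and Tpm1 lie to the right of 4-fold, and among the purple ones Cd44 and Slc2a1 lie to the left of 0.

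Transcription factors known to act on red cell genes were higher along with the erythroid forms. All 5 listed passed 4-fold towards the CD45- array, where 8.31% of all measured genes did, and their median difference was 5.58. Klf1 stood at 42791 against 613.9, Tal1 at 30937 against 461.3, Nfe2 at 30977 against 647.5, Gata1 at 14955 against 351.8, and Zfpm1, the GATA1 cofactor, at 17553 against 1506. Over only 2 arrays, the genes nearest to Ank1 in both log2 intensities, out of 8272 measured in both, were Hbb-b2 (20774 against 144.9, a distance of 0.17), Tspo2 (0.21), Rab3il1 (0.46), Ypel4 (0.48) and 1300017J02Rik (0.52). Those nearest to Sptbn1 were Lasp1 (0.03), Slc9a3r1 (0.07), Sulf2 (0.09), Itgal (0.10) and Csf1r (0.13). Many genes lie close together on such a plane, so nearness describes these 2 arrays only.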

How the data were processed

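RNA of 2 sorted cell preparations was hybridised to 1 Affymetrix array each, after biotinylated cRNA was made with a 3' in vitro transcription kit, per the labels' protocols. The authors deposited 1 linear intensity per probe set and array. The submitters' processing notes name GCRMA and Partek 6.6 without a role, and the step that made the values is not settled: means with 2% left out at each end were 494.1 and 496.9, as after scaling to a common level. The table has no detection calls, and the number of arrays limits the precision. No genome build goes with the values.

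Names came from GEO's platform annotation. All 81 probe sets of the members and their relatives matched RefSeq genes of GRCm38.p6 by Entrez identifier, and 0 symbols changed. Of 45037 probe sets, 34945 carried 1 symbol, and the 932 with several and 9160 with none were left out. Differences were taken on log2 intensities, to which no pseudocount was added. Bounds for values dim in the CD45- array were taken against its own level of 127.2. Probe sets of a gene share their RNA and are not replicates. Their pooled SD of the difference, 0.83 over 5474 genes, served as the yardstick for a moved value, multiplied by the square root of 2 for a gap.

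The members and lists were chosen with earlier results of these data known. Named were all members with every probe set, their relatives, 5 regulators, the 4 partners with the largest difference in each direction and the 5 genes nearest to Ank1 and to Sptbn1. Slc4a1, Tmod3, Tpm1, Tpm3, Tpm4 and Actb were named in addition, after their values were seen. Alternatives covered the gene summary, scaling, detection level, pseudocount and probe set suffix. The calculations, tested on simulated data, used pandas 2.3.3 and numpy 2.4.6 under Python 3.11.15, and figures were drawn with matplotlib 3.10.9. In the simulated data all probe sets of a changed gene had the same effect, so disagreement between probe sets was not covered.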

Additional observations from a re-analysis of the deposited data

How the results depend on the processing

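Under the 8 alternatives, the members at least 4-fold higher numbered 5 or 6 and those at least 4-fold lower 1 or 2, and no member changed direction. Some alternatives could not change a member: no detection level, each array's own level, and leaving out probe sets ending in _x_at or _s_at. The probe sets that stood for the members lay above the common level and each array's own level, and carry neither suffix. With the mean log2 value over the probe sets of a gene, 1 member was at least 4-fold lower, and the gaps, with the level in place of a mean under it, were at least 4.93 for Sptb over Sptbn1, 2.76 for Add2 over Add1 and 6.42 for Add2 over Add3. Without probe sets ending in _x_at or _s_at, the gap of Epb42 over Tgm2 was 4.61. Of the partners, 1 in place of 2 was at least 4-fold lower with the mean of probe sets and with median centring. Median centring moved the median difference of all measured genes from -0.26 to 0.08 and the share of higher genes among the 4-fold differences from 33.1% to 46.3%. Values near the detection level limit the folds of Ank1 and Add2, whose CD45+ intensities were 145.6 and 109.1. No paired analysis was possible because each group had 1 array.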
